A study of Mus musculus with 6 samples.

Results

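The genes described here fold proteins in the endoplasmic reticulum (ER), move them across its membrane, remove the misfolded ones, or report on folding to the nucleus as the unfolded protein response. They were taken as every row of the expression table whose mouse gene symbol was on a list of 44 symbols of this machinery. Of these symbols 43 were found, among 18001 genes in the table. The symbol Selenos had no row of its own, but it is another name of Vimp, which had one.

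NIH/3T3 cells, an immortalized mouse embryonic fibroblast line, were transfected with siRNAs against Aldoa (siAldoa), the gene of the glycolytic enzyme aldolase A, or with non-targeting siRNAs (siCtrl). RNA was taken 48 h after transfection from 3 replicates of each treatment, and poly(A) RNA was sequenced. The comparison asks how the transcripts of these cells differ once Aldoa is lowered. The values are CPM, which scale the reads of a gene to the effective size of its library, and the 6 libraries held between 3692341 and 3771129 reads, so that 3 reads correspond to 0.79 to 0.82 CPM.

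The ER lumen is crowded with chaperones such as BiP, GRP94 and calreticulin, and with protein disulfide isomerases that form and reshuffle disulfide bonds. When unfolded proteins build up there, the membrane sensors ATF6, IRE1 and PERK are released from BiP. Cleaved ATF6 and the XBP1 protein made from IRE1-spliced mRNA then raise transcription of chaperones, of translocon subunits and of ER-associated degradation (ERAD), while PERK lowers translation and favours ATF4. Fibroblasts depend on this machinery because they secrete collagen and other matrix proteins.

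Aldoa itself was at 522, 536 and 545 CPM in siCtrl replicates 1, 2 and 3 and at 62.9, 69.2 and 72.0 CPM in the siAldoa replicates, which is 12.7% of the control mean (log2 fold change -2.96 ± 0.052 SE, limma adjusted p = 1.3e-21). All 10 fibroblast markers examined were in the table, and their summed level was 16226 to 16797 CPM in siCtrl and 14085 to 14778 CPM in siAldoa, a mean of 87.0% of the control. They did not move together. At a limma adjusted p under 0.05, 4 of them were lower and 3 higher, beside 10.0% and 10.4% of all genes. Their log2 fold changes had a median of -0.07 and ran from -0.44 to 1.14. Of the epithelial markers 4 of 7 were in the table, and they summed to 18.6 to 19.7 CPM in siCtrl and 7.86 to 14.2 CPM in siAldoa, with Cdh1 and Krt8 lower and Epcam not among the 4. Haematopoietic markers (5 of 8 in the table) and endothelial markers (4 of 5) summed to at most 11.1 CPM in any library. Whether these shifts in markers have a part in the results below was not tested. A gene that fell in all cells and fewer cells that express it cannot be told apart. Since CPM is a share of each library, a change in total RNA per cell is not seen in it. The p-values measure the spread between these replicates only. Replicates 1 and 2 were closer to each other (chi-square per degree of freedom 1.12 in siCtrl and 1.11 in siAldoa) than either was to replicate 3 (1.97 to 3.03). Counting error alone would give about 1. The paper describes the 3 replicates as biological, but the labels do not say whether replicates 1 and 2 came from separate cultures. If they did not, the SDs and p-values given here are too small.

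Of the 43 ER genes 11 were lower in siAldoa and 4 were higher, at a limma adjusted p under 0.05 over all 18001 genes. The lower 11 were Hspa5, Pdia6, Calr, Ssr1, Manf, Vcp, Ssr2, Hsp90b1, Pdia3, Sec62 and Canx, and the higher 4 were Dnajb9, Herpud1, Atf6 and Derl1. Over all genes 20.4% were called, 10.0% lower and 10.4% higher. The other 28 ER genes did not pass the threshold. The median log2 fold change of the 43 genes was -0.05, against -0.00 over all genes, with 26 genes below 0 and 17 above. The 3 siAldoa libraries lay below all siCtrl libraries for 17 of the ER genes, where 17.1% of all genes did so, and above them for 5, where 16.7% of all genes did so. With quantile normalization in place of the deposited scaling the calls were 6 lower and 4 higher, a share of lower calls of 60.0% in place of 73.3%. Under that scaling Canx, Hsp90b1, Pdia3, Sec62, Ssr2 and Dnajb9 no longer passed and Uggt1 did. Without limma's mean-variance trend Hspa5 and Herpud1 alone kept their calls. Per the methods, spike-in RNA was added to replicate 1 of both groups at lysis and to replicates 2 and 3 after extraction. Within replicates 2 and 3 the calls were 6 lower and 2 higher, and replicate 1 alone has 1 library per group and gives no test.

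**Figure D1:**
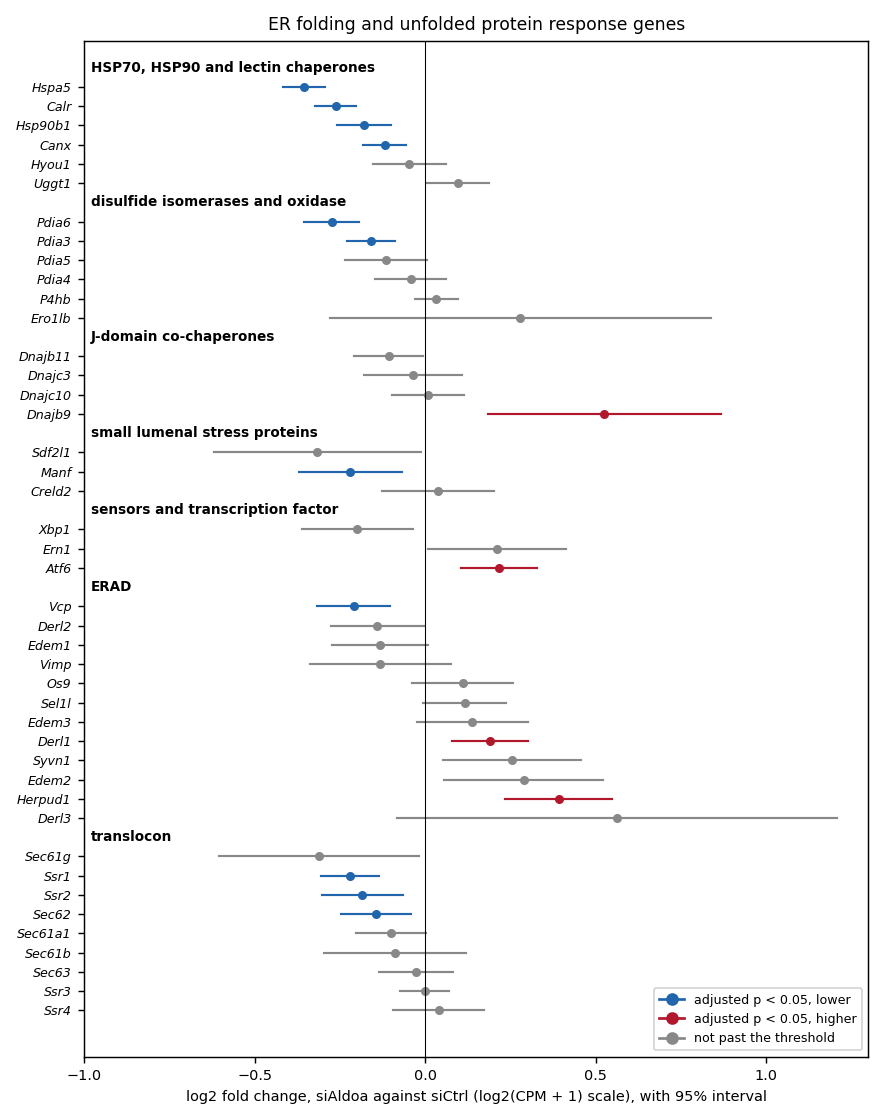
Log2 fold change of each of the 43 ER genes between siAldoa and siCtrl on the log2(CPM + 1) scale, grouped by role, with dots for estimates, bars for 95% intervals that are not adjusted for multiple testing, and colour for genes past an adjusted p of 0.05. The lower genes include 4 of 6 chaperones, 2 of 6 genes of disulfide exchange and 3 of 9 of the translocon. Of all genes at 100 CPM or more 31.8% were lower. Canx turned to 0.05 with quantile normalization. Dnajb9, Herpud1, Atf6 and Derl1 lie to the right of 0.

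Abundant genes were called more often than rare ones in the whole table, so the ER genes were also read by level. Of the 2463 genes with a mean of at least 100 CPM, 31.8% were called lower and 19.4% higher. Among the 24 ER genes at that level 10 were lower and 2 higher, with a median log2 fold change of -0.10, where all genes of that level had -0.04. Among the 19 ER genes under 100 CPM 1 was lower and 2 were higher, with a median of 0.04. Across the 43 genes the Spearman correlation between mean CPM and log2 fold change was -0.42, and across the 24 more abundant ones -0.54, while over all 2463 abundant genes it was -0.10. These correlations are across genes that share the same 6 libraries and are given as a description.

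**Figure D2:**
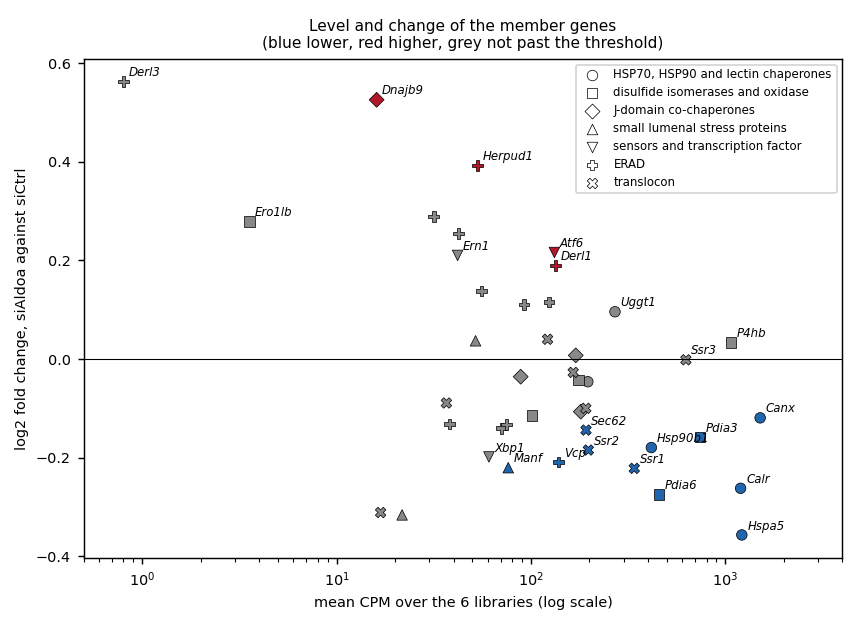
Mean CPM over the 6 libraries (log scale) against the log2 fold change of siAldoa over siCtrl, 1 symbol per ER gene, with the shape for the role and the colour for the call. The most abundant genes, Hspa5, Calr and Canx, lie below 0 (Canx at 0.05 with quantile normalization), P4hb at a similar level lies just above it, and the higher genes lie under 150 CPM.

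The promoters of many of these genes carry the ER stress response element, and the sequences are shown because they are what ATF6 and XBP1 are known to act through. RefSeq promoter windows of GRCm38.p6, from 250 bases before to 50 bases after each start, were searched on both strands for ERSE (CCAAT and CCACG with 9 bases between), for ERSE-II (ATTGG, 1 base, CCACG) and for the UPRE core (TGACGTGG). All these motifs hold CCACG or its reverse complement and can overlap, but no ER gene held more than 1 kind. A window was found for 37 of the 43 genes, and none was used here for Atf6, Derl1, Hyou1, Manf, Sec61a1 and Ssr2. ERSE was held by 10 of these 37 genes, where 37 of all 27025 genes with a window, or 0.137%, held it. The matches are written 5′ to 3′ on the strand on which they read CCAAT to CCACG, with the letters searched for in capitals. Their distance is upstream of the RefSeq start. Gene coordinates given further below are from GENCODE and can begin before that start. The Hspa5 match lies within the GENCODE bounds of that gene, chr2:34771970-34777547.
Hspa5, chr2:34772025-34772043, plus strand, 47 to 65 bases upstream: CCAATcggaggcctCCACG
Calr, chr8:84847075-84847093, plus strand, 144 to 162 bases upstream: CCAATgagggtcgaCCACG
Canx, chr11:50325800-50325818, minus strand, 127 to 145 bases upstream: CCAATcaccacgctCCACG
Hsp90b1, chr10:86705533-86705551, plus strand, 89 to 107 bases upstream: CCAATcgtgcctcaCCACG
Hsp90b1, chr10:86705638-86705656, minus strand, 194 to 212 bases upstream: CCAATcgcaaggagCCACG
Pdia6, chr12:17266491-17266509, plus strand, 80 to 98 bases upstream: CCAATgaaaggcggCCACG
Creld2, chr15:88819520-88819538, minus strand, 108 to 126 bases upstream: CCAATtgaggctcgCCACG
Dnajc3, chr14:118937827-118937845, plus strand, 87 to 105 bases upstream: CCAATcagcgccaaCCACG
Syvn1, chr19:6046532-6046550, plus strand, 26 to 44 bases upstream: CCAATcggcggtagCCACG
Ero1lb, chr13:12565682-12565700, minus strand, 183 to 201 bases upstream: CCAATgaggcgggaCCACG
Derl3, chr10:75893242-75893260, minus strand, 138 to 156 bases upstream: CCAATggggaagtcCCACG

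The first 5 genes of this series, Hspa5, Calr, Canx, Hsp90b1 and Pdia6, were lower in siAldoa, and the other 5 with ERSE did not pass the threshold. The median log2 fold change of all 10 genes with ERSE was -0.08. Of the 27 ER genes with a window but no ERSE, 4 were lower and 2 higher, with a median of -0.04. The 5 lower genes with ERSE had means of 416 to 1510 CPM over the 6 libraries, and the other 5 had means of 0.801 to 88.6 CPM, so the presence of ERSE among the calls cannot be told apart from level. Of the 12 genes with ERSE in the table that are not on the ER list, 2 were lower (Hnrnpa3, and Calr4 with a mean of 1.48 CPM) and 0 were higher. Among these 12, 1700122E12Rik and Alg12 hold the same sites as Calr and Creld2 and are not separate instances. Over all genes 10.0% were lower and 10.4% higher, and at 100 CPM or more 31.8% and 19.4%. ERSE-II stood in 12 of all 27025 genes (0.044%), and Herpud1, the ER gene with the highest fold change among those that passed after Dnajb9, held it 42 to 52 bases upstream of its start. Dnajb11 held ERSE-II after its start, and Vcp, which was lower, held the UPRE core that 0.714% of all genes held. A match describes letters in a window and not a bound site.

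The 250 bases before the RefSeq start are printed for Hspa5, which had the lowest log2 fold change of the 43 genes, and for Herpud1, which rose. ERSE in the first and ERSE-II in the second are in capitals, and both stretches are on the plus strand of GRCm38.p6. The Hspa5 stretch from 34771970 onward lies within the GENCODE bounds of the gene.
Hspa5, chr2:34771840-34772089: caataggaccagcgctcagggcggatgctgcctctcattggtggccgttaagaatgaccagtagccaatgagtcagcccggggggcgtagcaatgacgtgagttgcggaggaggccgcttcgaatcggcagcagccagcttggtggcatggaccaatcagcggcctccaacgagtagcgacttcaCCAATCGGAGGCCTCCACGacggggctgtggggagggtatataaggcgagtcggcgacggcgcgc
Herpud1, chr8:94386179-94386428: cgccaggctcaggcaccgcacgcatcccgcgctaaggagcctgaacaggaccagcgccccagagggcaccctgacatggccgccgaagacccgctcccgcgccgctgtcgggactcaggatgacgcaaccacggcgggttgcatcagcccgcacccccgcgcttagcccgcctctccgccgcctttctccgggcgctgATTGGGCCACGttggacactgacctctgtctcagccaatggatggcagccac

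The HSP70, HSP90 and lectin chaperones were the group with the most lower calls, 4 of 6, and none was higher. Over all genes 10.0% were lower, and 31.8% of those at 100 CPM or more. Hspa5 (ENSMUSG00000026864, chr2:34771970-34777547 of GRCm38, plus strand) encodes BiP, the HSP70 of the ER lumen that holds the stress sensors inactive. It was at 1380.2, 1352 and 1363 CPM in siCtrl and at 1061, 1047 and 1091 CPM in siAldoa. Every siAldoa library lay below every siCtrl library, by far more than the spread within either group. The means were 1365 ± 14.4 CPM and 1066 ± 22.6 CPM (SD, n = 3 each), or 78.1% of the control, with a log2 fold change of -0.36 ± 0.030 SE (limma adjusted p = 4.9e-09). Hspa5 passed the threshold under every alternative tried, with adjusted p-values up to 0.031.

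Calr (ENSMUSG00000003814, chr8:84841850-84846934, minus strand) encodes calreticulin, a soluble lectin chaperone that binds calcium and newly made glycoproteins. It was at 1314, 1293 and 1312 CPM in siCtrl and at 1083, 1079 and 1106 CPM in siAldoa. The groups did not overlap, and the log2 fold change was -0.26 ± 0.029 SE (limma adjusted p = 4.3e-07). Canx (ENSMUSG00000020368, chr11:50293961-50325673, minus strand) encodes calnexin, the membrane-bound counterpart of calreticulin. It was at 1563, 1636 and 1519 CPM in siCtrl and at 1453, 1456 and 1434 CPM in siAldoa, with a log2 fold change of -0.12 ± 0.030 SE (limma adjusted p = 0.0062) and 0.05 with quantile normalization. The groups of Canx did not overlap, but without siCtrl replicate 2 its limma adjusted p was 0.065. The call was also lost without replicate 1 (0.152), replicate 2 (0.148) or replicate 3 (0.070) of both groups.

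Hsp90b1 (ENSMUSG00000020048, chr10:86690209-86705509, minus strand) encodes GRP94, the HSP90 of the ER. It was at 440.4, 454 and 432 CPM in siCtrl and at 379.7, 389 and 403 CPM in siAldoa, means of 442 ± 11.4 and 390 ± 11.6 CPM (SD, n = 3 each). The groups did not overlap, and the log2 fold change was -0.18 ± 0.039 SE (limma adjusted p = 0.0015), which did not pass with quantile normalization (adjusted p = 0.14) or without replicate 1 (0.091) or replicate 2 (0.099) of both groups. Hyou1, an HSP70-like exchange factor for BiP, had a log2 fold change of -0.05 with a 95% interval from -0.15 to 0.06. Uggt1, which re-glucosylates misfolded glycoproteins so that they return to calnexin, lay above the control in all libraries with a log2 fold change of 0.10, but its limma adjusted p was 0.13. Summed over the 6 genes the chaperones went from 5147 ± 41.0 CPM to 4466 ± 52.7 CPM (SD, n = 3 each), 86.8% of the control. Their median log2 fold change was -0.15, and -0.05 with quantile normalization.

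Among the disulfide isomerases and the oxidase that recharges them, 2 of 6 genes were lower and none was higher. The share of lower genes, 33.3%, was near that of all genes at 100 CPM or more, 31.8%. Pdia6 (ENSMUSG00000020571, chr12:17266545-17284770, plus strand) encodes an isomerase found in complexes with BiP. It was at 498, 483 and 514 CPM in siCtrl and at 404, 403 and 429 CPM in siAldoa, 82.7% of the control. The groups stood clear of each other, with a log2 fold change of -0.27 ± 0.039 SE (limma adjusted p = 1.3e-05). Pdia3 (ENSMUSG00000027248, chr2:121413775-121438687, plus strand) encodes the isomerase ERp57 that works on glycoproteins held by calnexin and calreticulin. It was at 790.5, 759.9 and 794 CPM in siCtrl and at 712, 680.2 and 709 CPM in siAldoa. These groups did not overlap either, with a log2 fold change of -0.16 ± 0.034 SE (limma adjusted p = 0.0014), and the adjusted p was 0.14 with quantile normalization and 0.077 and 0.089 without replicate 1 or replicate 3 of both groups.

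P4hb, the founding disulfide isomerase and also a subunit of the enzyme that hydroxylates collagen prolines, was at 1064, 1069 and 1039 CPM in siCtrl and at 1061, 1078 and 1108 CPM in siAldoa. Its groups overlapped, and the 95% interval of its log2 fold change ran from -0.03 to 0.10, which lies above the intervals of Pdia6 (-0.35 to -0.19) and Pdia3 (-0.23 to -0.09). The difference between these isomerases was not itself tested. Pdia4 and Pdia5 had log2 fold changes of -0.04 and -0.11 and did not pass, although all siAldoa libraries of Pdia5 lay below the control. Ero1lb, the less common ER oxidase, had only 9 to 20 reads in a library, and its interval from -0.28 to 0.84 shows that a change of moderate size was not detectable at this depth.

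Levels of different genes were compared per kilobase of exon. In siCtrl the order was Calr with 454, P4hb with 370, Canx with 335, Hspa5 with 323 and Pdia3 with 249 CPM per kilobase. In siAldoa Calr and P4hb both had 378, Canx had 308, Hspa5 had 252 and Pdia3 had 223 CPM per kilobase. These 5 genes were the most abundant of the 43 per kilobase in both groups, and Derl3 was the least abundant in siCtrl, with 0.229.

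Of the 4 J-domain co-chaperones, which bring client proteins to BiP and stimulate its ATPase, Dnajb9 was higher and none was lower. Over all genes 10.4% were higher and 10.0% lower, so 1 call among so few genes says little about the group. Dnajb9 (ENSMUSG00000014905, chr12:44205559-44210326, minus strand) encodes ERdj4, which returns IRE1 to its BiP-bound inactive state and takes part in ERAD. It was at 10.1, 17.2 and 12.2 CPM in siCtrl and at 18.1, 19.8 and 19.1 CPM in siAldoa. The groups did not overlap but nearly met at siCtrl replicate 2, and the log2 fold change was 0.53 ± 0.165 SE (limma adjusted p = 0.025). Dnajb9 had 37 to 74 reads in a library, and it passed when siCtrl replicate 2 was left out (limma adjusted p = 0.0066) but not when any other single library was, with limma adjusted p-values of 0.082 without siAldoa replicate 1 to 0.17 without siCtrl replicate 1. Dnajb11, Dnajc3 and Dnajc10 had log2 fold changes of -0.11, -0.04 and 0.01 and did not pass.

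Of the small lumenal stress proteins, Manf was lower and Sdf2l1 and Creld2 did not pass, beside 10.0% of all genes lower and 10.4% higher. Manf (ENSMUSG00000032575, chr9:106838312-106891979, minus strand), a secreted protein that binds BiP, was at 89.8, 74.4 and 83.1 CPM in siCtrl and at 71.2, 67.4 and 72.8 CPM in siAldoa. The lowest control library was close to the highest siAldoa library, and the log2 fold change was -0.22 ± 0.073 SE (limma adjusted p = 0.034). Manf passed without siCtrl replicate 2 (limma adjusted p = 0.015) and lost the call without any other single library, with limma adjusted p-values from 0.074 without siAldoa replicate 3 to 0.20 without siCtrl replicate 1. Sdf2l1, a partner of Dnajb11, had a log2 fold change of -0.32 and overlapping groups (limma adjusted p = 0.15), and among the alternatives tried it passed only without siCtrl replicate 3. Creld2 had a log2 fold change of 0.04.

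Of the sensors and their transcription factor Atf6 was higher, and Ern1 and Xbp1 did not pass, beside 10.4% of all genes higher and 10.0% lower. Atf6 (ENSMUSG00000026663, chr1:170704674-170867771, minus strand), whose protein is both the ER sensor and, once cleaved, the factor that acts on ERSE, was at 124, 124 and 118 CPM in siCtrl and at 137, 142 and 146 CPM in siAldoa. It rose in all siAldoa libraries relative to all controls, with a log2 fold change of 0.22 ± 0.054 SE (limma adjusted p = 0.0049). Its limma adjusted p was 0.086 without replicate 2 of both groups and 0.109 without replicate 3 of both. Ern1 (ENSMUSG00000020715, chr11:106394650-106487852, minus strand), the gene of IRE1, was at 38.6, 44.3 and 33.9 CPM in siCtrl and at 42.4, 45.2 and 47.4 CPM in siAldoa.

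The Ern1 groups overlapped, and its log2 fold change of 0.21 (standard error 0.097) had a limma adjusted p of 0.14. Xbp1 (ENSMUSG00000020484, chr11:5520659-5525893, plus strand), the transcript that IRE1 splices, was at 61.9, 70.3 and 63.0 CPM in siCtrl and at 54.0, 54.3 and 61.5 CPM in siAldoa. The groups nearly met at siAldoa replicate 3, and the log2 fold change of -0.20 (standard error 0.078) had a limma adjusted p of 0.080. The values are per gene, so spliced and unspliced Xbp1 mRNA were not separated, and neither cleavage of ATF6 nor phosphorylation of IRE1 or PERK was measured.

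**Figure D3:**
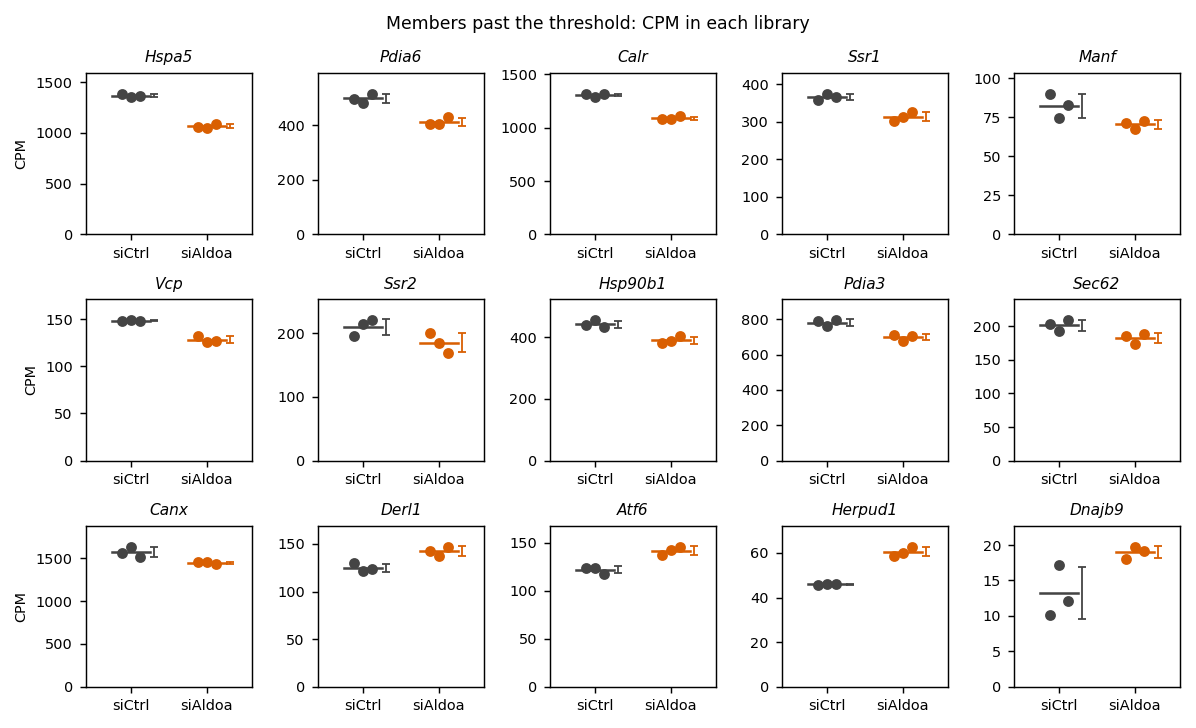
CPM in each library for the 15 ER genes past the threshold, with 1 point per library, a line at the mean of each group and a bar of 1 SD on each side, each panel on its own axis from 0. The siAldoa points lie below the siCtrl points for 10 of the 11 lower genes, Ssr2 being the exception, and above them for Derl1, Atf6, Herpud1 and Dnajb9.

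Of the 12 ERAD genes 1 was lower, 2 were higher and 9 did not pass, beside 10.0% lower and 10.4% higher over all genes. Their median log2 fold change was 0.13, and 0.04 to 0.19 with libraries left out, where 0 to 2 were higher. Herpud1 (ENSMUSG00000031770, chr8:94386438-94395377, plus strand) encodes a membrane protein that organizes the ubiquitin ligase complex of ERAD. It was at 45.5, 46.2 and 46.0 CPM in siCtrl and at 58.8, 60.1 and 62.8 CPM in siAldoa, 132% of the control. The groups were well apart, with a log2 fold change of 0.39 ± 0.076 SE (limma adjusted p = 4.9e-04). Without replicate 3 of both groups its limma adjusted p was 0.0503, just past the threshold, and it passed under all other alternatives.

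Derl1 (ENSMUSG00000022365, chr15:57869502-57892448, minus strand) encodes Derlin-1, part of the channel through which proteins leave the ER. It was at 129.6, 121 and 124 CPM in siCtrl and at 143, 137 and 147 CPM in siAldoa, with a log2 fold change of 0.19 ± 0.054 SE (limma adjusted p = 0.014). The groups did not overlap, but the call was lost without siCtrl replicate 2 (limma adjusted p = 0.066), siCtrl replicate 3 (0.053), siAldoa replicate 1 (0.054) or siAldoa replicate 3 (0.071). Vcp (ENSMUSG00000028452, chr4:42979963-43000507, minus strand) encodes p97, the cytosolic ATPase that pulls ERAD clients out of the membrane and also serves many other processes. It was at 148, 149 and 148 CPM in siCtrl and at 133, 126 and 126 CPM in siAldoa, with no overlap and a log2 fold change of -0.21 ± 0.052 SE (limma adjusted p = 0.0048), a call lost without replicate 2 (0.095) or replicate 3 (0.091) of both groups.

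The other 9 ERAD genes did not pass. Sel1l and Syvn1, the adaptor and the catalytic subunit of the HRD1 ligase, had log2 fold changes of 0.12 and 0.25, with limma adjusted p-values of 0.19 and 0.068. Among the mannosidase-like proteins that mark glycoproteins for degradation, Edem2 and Edem3 had 0.29 and 0.14 and Edem1 had -0.13, and Os9, a lectin that reads the mark, had 0.11. Derl2 had -0.14 and Vimp, a selenoprotein that recruits p97, had -0.13. Derl3, a Derlin of secretory tissues, had 4, 1 and 0 reads in siCtrl and 3, 2 and 8 in siAldoa, at or near the level of 3 reads, and no direction was read from it.

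The translocon and its partners had a median log2 fold change of -0.10, with 3 of 9 genes lower, 0 to 2 with libraries left out, and none higher. The share of lower genes, 33.3%, was near the 31.8% of all genes at 100 CPM or more. Ssr1 (ENSMUSG00000021427, chr13:37966605-37994217, minus strand) encodes the alpha subunit of TRAP, the complex beside the Sec61 channel that helps some signal sequences enter it. It was at 359, 374 and 366 CPM in siCtrl and at 303, 312 and 327 CPM in siAldoa, without overlap, and its log2 fold change was -0.22 ± 0.041 SE (limma adjusted p = 3.2e-04, and 0.070 without replicate 2 of both groups). Ssr2 (ENSMUSG00000041355, chr3:88575876-88588419, plus strand), the beta subunit, was at 196, 214 and 219.9 CPM in siCtrl and at 200, 185 and 169 CPM in siAldoa. The Ssr2 groups overlapped, since siAldoa replicate 1 lay above siCtrl replicate 1, and its log2 fold change was -0.18 (limma adjusted p = 0.024). That call was lost without siCtrl replicate 2 (limma adjusted p = 0.13), siCtrl replicate 3 (0.17), siAldoa replicate 2 (0.10) or siAldoa replicate 3 (0.20).

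Ssr3, the gamma subunit of the same complex, was at 615 to 644 CPM in siCtrl and at 610 to 641 CPM in siAldoa. Its 95% interval ran from -0.07 to 0.07 on the log2 scale, outside that of Ssr1 (-0.31 to -0.14), although the difference between the subunits was not itself tested. Ssr4, the delta subunit, had a log2 fold change of 0.04. Sec62 (ENSMUSG00000027706, chr3:30792875-30821263, plus strand), which serves proteins that enter the ER after translation, was at 203, 193 and 209 CPM in siCtrl and at 185, 174 and 188 CPM in siAldoa. The Sec62 groups did not overlap, with a log2 fold change of -0.14 ± 0.049 SE (limma adjusted p = 0.041). Sec62 kept its call only without siCtrl replicate 2 (limma adjusted p = 0.038), and the other single libraries left out gave limma adjusted p-values from 0.055 without siAldoa replicate 3 to 0.19 without siAldoa replicate 2.

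The channel subunits Sec61a1, Sec61b and Sec61g had log2 fold changes of -0.10, -0.09 and -0.31 and did not pass, and neither did Sec63, the J-domain partner of Sec62, with -0.03. All siAldoa libraries of Sec61a1 and Sec61g lay below the controls. Sec61b, Sec61g, Ssr2 and the oxidase gene Ero1lb share near-identical sequence with other loci, so reads could be split between copies. Examples are 2700060E02Rik for Ssr2 (98.6% identity over 366 bases) and a locus without a symbol for Ero1lb (98.0% over 921 bases). The exons of Vcp, Hsp90b1, Manf, Pdia6, Pdia3, Syvn1 and Derl2 overlap a gene on the opposite strand. The library kit keeps strand, but whether the counting used it is not given in the sources used here.

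Targets led by ATF6 and by XBP1 were set side by side by their textbook assignment, with the reservation that both factors act on many of these genes. Of 15 ATF6-led targets 5 were lower (Hspa5, Pdia6, Calr, Manf and Hsp90b1) and 1 was higher (Herpud1), with a median log2 fold change of -0.11. Of 11 XBP1-led targets 1 was lower (Ssr1) and 2 were higher (Dnajb9 and Derl1), with a median of -0.09. Over all genes 10.0% were lower and 10.4% higher, and at 100 CPM or more 31.8% and 19.4%. The summed level of the ATF6-led targets went from 4603 ± 30.4 CPM to 3934 ± 83.0 CPM (SD, n = 3 each), 85.4% of the control, and that of the XBP1-led targets from 1884 ± 30.6 CPM to 1816 ± 16.8 CPM, 96.4% of the control. The sum of the ATF6-led targets rests largely on Hspa5 and Calr. Whether the lists differ from each other was not tested. For each gene whose groups did not overlap the two-sided exact permutation test over libraries gave p = 0.1, the smallest that 3 against 3 libraries allow.

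Neighbouring genes of the same organelle, listed by function, held calls in both directions. Over all genes 10.0% were lower and 10.4% higher, so calls in both directions are not particular to these lists. Other folding enzymes (7.1% lower and 7.1% higher) and other ERAD factors (8.0% and 8.0%) lay under those shares. In the arm of PERK and ATF4, 3 of 12 genes were lower and 3 higher. Atf4, the factor translated when PERK or related kinases are active, was at 571, 567 and 576 CPM in siCtrl and at 477, 485 and 489 CPM in siAldoa (log2 fold change -0.24, limma adjusted p = 1.5e-05). Its targets Ddit3, which encodes CHOP, and Asns, the asparagine synthetase, were lower as well, by log2 fold changes of -0.40 and -0.28. Chac1, a glutathione-degrading enzyme that ATF4 is known to induce, Ppp1r15a, which reverses the phosphorylation set by PERK, and Cebpb were higher, by 0.52, 0.43 and 0.41.

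Of 28 other folding enzymes of the ER 2 were lower and 2 higher, and 2 and 1 once replicate number entered as a block. Serpinh1, the collagen chaperone HSP47, was at 1187 to 1237 CPM in siAldoa against 1580.3 to 1630.4 CPM in siCtrl, with a log2 fold change of -0.41 (limma adjusted p = 4.5e-10). Tmx1, a membrane thioredoxin, had -0.33, while Fkbp14, a collagen prolyl isomerase, had 0.77 and Hspa13 had 0.19. The genes of N-glycan transfer and trimming had 6 lower and 1 higher of 20, and 4 lower and 1 higher with the replicate block. With libraries left out 0 to 5 of them were lower. Called in this list were the oligosaccharyltransferase subunits Ostc and Magt1 at -0.41 and -0.25, Mcfd2 at -0.24 and, as the higher gene, the mannosidase gene Man1a at 0.53.

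Among genes of targeting, signal peptidase and insertion 6 of 26 were lower and none was higher, but with libraries left out the lower calls were 0 to 5 and the higher calls 0 to 1. The lower share, 23.1%, lay between the 10.0% of all genes and the 31.8% of those at 100 CPM or more. The lowest were Emc2, Sec11a and Spcs1 with log2 fold changes of -0.34, -0.27 and -0.23. Among other ERAD and unfolded protein response factors 2 of 25 were lower and 2 higher, and 1 and 2 with the replicate block. The lower genes were Mbtps1, the site-1 protease that cleaves ATF6, at -0.25 and Ufd1l, a cofactor of p97, at -0.19, and the higher ones were Creb3l2, a relative of ATF6 that promotes collagen secretion, at 0.82 and Fam8a1, a partner of the HRD1 ligase, at 0.56. Of 6 transcripts that IRE1 is known to cut, Sparc was lower (-0.12), Pdgfrb (1.14) and Col6a1 (0.20) were higher and 3 did not pass. Over all genes 10.0% were lower and 10.4% higher.

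**Figure D4:**
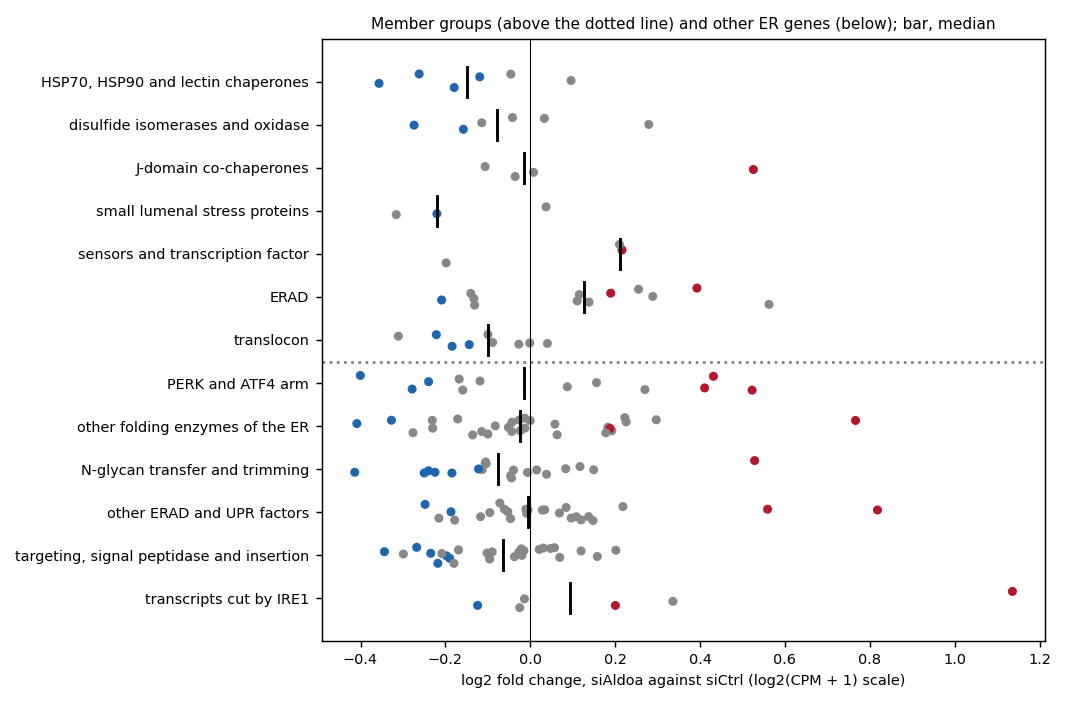
Log2 fold change of siAldoa over siCtrl on the log2(CPM + 1) scale for the ER genes by role (above the dotted line) and for the other lists of ER genes (below it), 1 dot per gene, with a bar at each median, blue for lower and red for higher at an adjusted p under 0.05 and grey for neither. The medians of the chaperones and the translocon lie at -0.15 (-0.05 with quantile normalization) and -0.10, and that of ERAD at 0.13.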

How the data were processed

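The authors subsampled the reads aligned to mm10 so that libraries held equal numbers, and deposited CPM per gene. The submitters' processing notes name Bowtie2 2.2.7, the counting was done with GenomicAlignments in R, and its strand setting is not given in the sources used here. A deposited table of log2 fold changes, log2 mean CPM, p-values and adjusted p-values was not used. All 6 libraries were grouped by label and compared on the log2(CPM + 1) scale with limma 3.58.1 (R 4.3.3), with its mean-variance trend, two-sided, with Benjamini-Hochberg adjustment over 18001 genes. Fold changes of genes with few reads are therefore understated. Whole reads were recovered from 100% of values (within 0.01 read), and edgeR 4.0.16 (quasi-likelihood test, 3786 genes called) and DESeq2 1.42.0 were run on them. Counting error does not cover duplicate reads, as there were no molecular identifiers. Fewer than 12 reads in all, the minimum in the methods, were found for 1834 genes.

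The member genes and all lists were chosen with earlier results of these data known. By rule every member was named. Library values were given in full for the members past the threshold, for Aldoa, Ern1 and Xbp1, and from each other list up to 3 lowest and 3 highest called genes were named, with Atf4 and Ddit3. Exon lengths came from GENCODE (17932 of 18001 identifiers matched), promoters from RefSeq, and near copies (at least 90% identity over 200 bases) from blastn 2.17.0. The tests were tried on simulated data. Alternatives were another pseudocount (0.1), a minimum mean of 1 CPM, no trend, quantile normalization, the replicate block, libraries left out, and replicates 1 and 2 averaged. TMM scaling was also run, but it returned the fold changes of the deposited CPM. Protein sequence features were not analysed here.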

Additional observations from a re-analysis of the deposited data

How the results depend on the processing

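Without the mean-variance trend the calls fell to 616 lower and 824 higher over all genes, and to 1 lower (Hspa5) and 1 higher (Herpud1) among the ER genes. DESeq2 called 1117 genes lower and 1066 higher, and 8 and 2 of the ER genes. The ER calls lost with DESeq2 were Ssr2 (adjusted p = 0.057), Derl1 (0.073), Dnajb9 (0.103), Sec62 (0.127) and Manf (0.130). Quantile normalization left 6 ER genes lower, moved the chaperone median to -0.052 and turned Canx (0.048, adjusted p = 0.36), Sec63 (0.012) and Ssr3 (0.069) above 0, and in the same setting the median of all genes at 100 CPM or more moved from -0.04 to -0.00. With libraries left out, 520 to 1371 genes were lower and 494 to 1464 higher, and 4 to 9 ER genes were lower and 0 to 3 higher. Leaving out both replicates 3 gave the count of 0. Hspa5, Calr and Pdia6 kept their calls with any library or replicate number left out. In the other lists 0 to 5 N-glycan and 0 to 5 targeting genes were lower. These settings test fewer samples. Over them the log2 fold change ranged from -0.014 to 0.106 for Creld2, -0.025 to 0.045 for Dnajc10, -0.105 to 0.0096 for Dnajc3, -0.023 to 0.63 for Ero1lb, -0.089 to 0.0068 for Pdia4, -0.096 to 0.026 for Sec63, -0.018 to 0.018 for Ssr3 and -0.015 to 0.134 for Ssr4, none of which had passed. The cause of the other shifts was not tested.

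The groups share replicate numbers, but the deviations of same-numbered libraries correlated at 0.080, 0.078 and 0.279, so the numbers were not taken to pair them, and only replicate 3 correlated best with its own number in both groups. With the replicate block limma called 1559 genes lower and 1611 higher, and 10 and 4 of the ER genes, Ssr2 being lost (adjusted p = 0.081). In the other lists the lower calls went from 6 to 4 (N-glycan), 6 to 5 (targeting) and 2 to 1 (other ERAD factors), and the higher calls of other folding enzymes from 2 to 1. The other pseudocount and edgeR kept the same 15 ER genes, and averaging replicates 1 and 2 kept 14 of them, without Sec62. TMM scaling returned the deposited scaling, with the same 1809 lower and 1867 higher calls, so it is no separate check. At this depth genes such as Derl3 and Ero1lb, with at most 20 reads in a library, could not show a moderate change.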
